A study of Mus musculus with 6 samples.

Results

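The 48 WNT and R-spondin signalling genes examined here are a small part of the 25164 gene symbols measured in day 1 mouse ovaries. They were chosen by symbol from the known parts of the pathway, with earlier results of these data known, and all 48 were in the table. They comprise 8 WNT ligands, 12 frizzled and LRP receptors, 6 R-spondins and LGR receptors, the 2 ligases Znrf3 and Rnf43, 9 cytoplasmic mediators, 4 TCF/LEF factors, 5 secreted antagonists and 2 genes of ligand secretion. Levels are FPKM, fragments scaled by transcript length and by mapped fragments, so that levels of different genes can be set beside each other.

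WNT proteins are secreted, lipid-modified ligands that bind frizzled receptors together with the co-receptors LRP5 and LRP6. Receptor binding stops the destruction complex of AXIN, APC and GSK3 from marking β-catenin for degradation, and β-catenin then acts on genes with the TCF/LEF factors. R-spondins bind LGR receptors and take the ligases ZNRF3 and RNF43 off the cell surface, which leaves more frizzled there. In the mouse gonad, Wnt4 and Rspo1 act on the side of ovarian differentiation.

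The study's title ties hnRNPL, an RNA-binding regulator of splicing, to how primordial follicles form and become active. Whole ovaries of C57BL/6 mice labelled hnRNPL flox/flox;Stra8-cre gave 3 libraries (cKO), and C57BL/6 ovaries labelled wild type gave 3 control libraries. All are titled day 1, and the protocol speaks of a hormone challenge without describing it. Stra8 is a gene of germ cells entering meiosis, so Cre under its control is aimed at germ cells, which share these whole-organ libraries with the somatic cells. Whether wild type animals carried floxed alleles or Cre, and whether libraries came from separate animals, is not given, so p-values measure the spread between these libraries. In whole tissue, fewer cells of a type and less RNA per cell cannot be told apart.

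Promoters of 4 members show the sequence context of genes that the results turn on. Rspo1, Wnt9a and Wnt6 encode secreted signals whose cKO and wild type levels were apart, and Fzd7 is the most abundant frizzled and holds a TCF/LEF match. Bases before the RefSeq start (build GRCm38.p6) are printed 5′ to 3′, starting 250 bases before it. There are 250 for Wnt6 and for Fzd7, but 221 for Rspo1 and 169 for Wnt9a, which are cut where a longer RefSeq gene span begins inside the stretch. The Wnt6 stretch precedes an internal start, since the RefSeq span of that gene begins upstream of it, and no GENCODE M21 exon lies in it. Capitals mark the GC box GGGCGG on either strand, and in Fzd7 also the TCF/LEF motif CTTTGTT, which lies on the opposite strand.
Rspo1, chr4:124986180-124986400, plus strand: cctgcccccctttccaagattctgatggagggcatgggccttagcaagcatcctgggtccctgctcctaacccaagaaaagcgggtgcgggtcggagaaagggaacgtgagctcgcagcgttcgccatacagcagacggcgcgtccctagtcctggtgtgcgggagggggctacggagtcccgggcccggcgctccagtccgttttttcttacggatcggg
Wnt9a, chr11:59306680-59306848, plus strand: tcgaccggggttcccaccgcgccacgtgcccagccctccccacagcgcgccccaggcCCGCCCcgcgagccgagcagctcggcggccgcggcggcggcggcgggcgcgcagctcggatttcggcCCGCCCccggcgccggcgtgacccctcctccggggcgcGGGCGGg
Wnt6, chr1:74771642-74771891, plus strand: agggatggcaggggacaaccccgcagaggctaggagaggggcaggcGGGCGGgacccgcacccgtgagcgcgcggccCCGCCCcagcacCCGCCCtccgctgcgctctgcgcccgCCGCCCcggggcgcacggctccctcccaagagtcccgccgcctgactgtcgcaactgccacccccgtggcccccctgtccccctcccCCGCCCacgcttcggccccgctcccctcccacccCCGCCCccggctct
Fzd7, chr1:59481897-59482146, plus strand: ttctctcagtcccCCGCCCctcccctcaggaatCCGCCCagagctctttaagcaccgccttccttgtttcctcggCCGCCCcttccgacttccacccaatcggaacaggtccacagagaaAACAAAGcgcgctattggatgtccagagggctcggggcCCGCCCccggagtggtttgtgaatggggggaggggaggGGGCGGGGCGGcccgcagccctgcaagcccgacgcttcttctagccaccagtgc

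GC boxes numbered 0 in the Rspo1 stretch, 3 in Wnt9a, 6 in Wnt6 and 6 in Fzd7, where 1 pair overlaps. The GC content was 63.3% in Rspo1, 84.6% in Wnt9a, 79.6% in Wnt6 and 65.2% in Fzd7. RefSeq lists 41 promoters for 31 of the 48 members, each running from 250 bases before to 50 after the start. GGGCGG was in 73.2% of these and in 35.7% of all 32851 promoters, and the median GC content was 67.3% in members' promoters and 52.7% in all promoters. A TCF/LEF motif was sought on both strands as CTTTGAT, with its forms that end in GAA or GTT in place of GAT. It was in 4 of the 41 promoters, or 9.76%, and in 13.9% of all promoters. Those 4 belong to Fzd7, Wnt5b, Wnt11 and Tcf7l2. Counted by gene it was in 4 of 31 members, in 4 of 16 genes described as WNT targets and in 4241 of all 27025 genes. A match describes letters and is not a shown binding site.

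Depth, estimated from the smallest FPKM steps of 2440 genes with 1 annotated transcript, was 7200000 to 12200000 fragments in cKO and 11100000 to 14400000 in wild type. Hnrnpl, the targeted gene, stood at 101, 81.5 and 85.2 FPKM in cKO and 104, 93.8 and 102 FPKM in wild type (log2 fold change -0.17, SE 0.13, limma adjusted p = 0.571). The groups overlapped as deposited, and after the scaling described below every cKO library was lower, at 85.5, 84.2 and 87.5 in cKO, against 105, 95.4 and 107 in wild type (log2 fold change -0.26, limma adjusted p = 0.1498). This level covers the whole gene in the whole organ and does not resolve the floxed part in germ cells. The ovary label was checked by Foxl2, a granulosa lineage factor, at 64.9 to 86.5 FPKM in cKO and 57.5 to 60.2 in wild type, and by 11 germ cell genes, all above 0 in every library. These went both ways: Dazl had 16.8 to 38.998 FPKM in cKO and 9.34 to 11.97 in wild type, whereas the oocyte gene Zp3 had 2.05 to 2.41 FPKM in cKO and 5.69 to 9.63 in wild type, and Gdf9 had 2.502 to 2.81 FPKM in cKO and 4.096 to 7.03 in wild type. One library, cKO replicate 1, stood apart with a summed FPKM of 335667, against 223845 to 246121 in the other 5.

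Set against wild type, the members with the smallest p were Wnt2b, Wnt9a, Wnt6, Rspo1, Tcf7 and Wnt5a, in that order. Wnt6 and Tcf7 were higher in every cKO library than in any wild type library, and the other 4 were lower in every cKO library. As these genes were picked by their p, groups lying apart is part of how they were picked and adds no support. Values as deposited gave no member that passed the test. Wnt2b and Rspo1 fell, by 0.63 and 0.48 on the log2 scale, once libraries were scaled to each other.

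Of the 48 members 40 had a mean of at least 1 FPKM and were tested in a fit over all 12442 such genes, by limma on log2(FPKM + 1), with calls at an adjusted p under 0.05. Called were 0 of the 40, against 0.121% of all tested genes (0.0482% higher and 0.0723% lower in cKO). The members' adjusted p ran from 0.101 to 0.999, and 6 had an unadjusted p under 0.05, or 15%, against 14.2% of all tested genes. Their median log2 fold change was -0.07, with 15 positive and 25 negative, beside 0.08 for all tested genes. In 33 of the 40 it lay within 0.25 of 0.

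Median-of-ratios scaling, which gives each library a single factor so that its typical gene lies level with the other libraries, shifted the median of all tested genes to 0.00 and that of the members to -0.15. It called 1.29% of all tested genes (0.764% higher and 0.53% lower in cKO) and 2 of the 40 members, or 5%, Wnt2b and Rspo1, both lower. Scaled values had an unadjusted p under 0.05 for 16 members, or 40%, against 18.9% of all tested genes. Both calls ended when cKO replicate 2 was left out, when replicate 1 or 3 of the wild type libraries was, and with the replicate block, whose limma adjusted p was 0.0847 for Wnt2b and 0.0947 for Rspo1. Leaving out wild type replicate 2 ended the call of Rspo1.

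The groups did not overlap in 15 of the 40 members, or 37.5%, against 22.6% of all tested genes. The cKO values were the lower ones in 11, or 27.5%, against 7.03% of all tested genes, and the higher ones in 4, or 10%, against 15.5%. Scaled values were lower in 18, or 45%, against 13%, and higher in 4, or 10%, against 12.6%. These shares describe the list and carry no test.

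**Figure D1:**
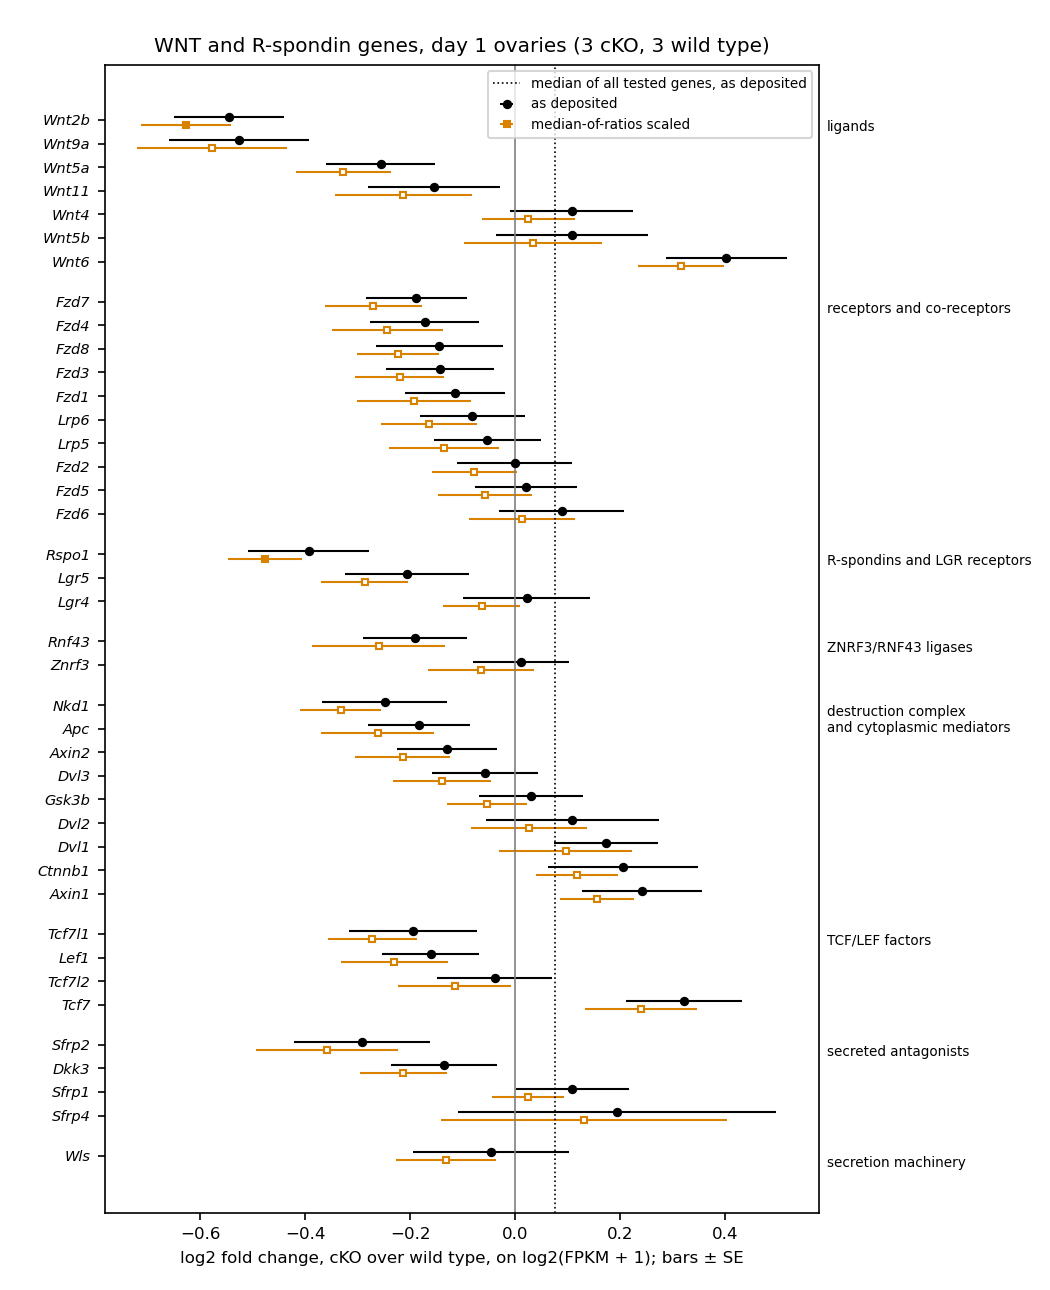
Log2 fold change of the 40 tested members (cKO over wild type, on log2(FPKM + 1), with SE), grouped by role down the page. Black circles are values as deposited, the dotted line is the median of all tested genes, and orange squares are values after median-of-ratios scaling, filled for an adjusted p under 0.05. Circles run from -0.54 for Wnt2b to 0.40 for Wnt6, and the filled squares are Wnt2b and Rspo1.

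Wnt6 (RefSeq gene span chr1:74754342-74785322, plus strand, as for the spans below) was by far the most abundant ligand transcript. It stood at 81.8, 73.99 and 72.4 FPKM in cKO, against 57.1, 54.7 and 59.8 FPKM in wild type. The lowest cKO library was above the highest wild type library, but the difference missed the threshold (log2 fold change 0.40, SE 0.11, limma adjusted p = 0.205, and 0.101 after scaling). Wnt2b (chr3:104944805-104961709, minus strand), a ligand of the β-catenin branch, stood at 12.2, 11.2 and 10.2 FPKM in cKO, against 17.3, 15.5 and 17.5 FPKM in wild type. All 3 cKO libraries were below all 3 of wild type. As deposited it missed the threshold (log2 fold change -0.54, SE 0.10, limma adjusted p = 0.101), and after scaling it fell (log2 fold change -0.63, limma adjusted p = 0.02005). It also passed unscaled when cKO replicate 1 was left out (limma adjusted p = 0.0466), and over all alternatives to the unscaled fit its limma adjusted p ran from 0.0137 to 0.401.

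Wnt9a stood at 1.202, 1.31 and 1.48 FPKM in cKO and at 2.31, 2.64 and 2.12 FPKM in wild type, with a gap between the groups (log2 fold change -0.53, SE 0.13, limma adjusted p = 0.182). These levels are low, and the added 1 FPKM of the log scale makes the fold change smaller than the ratio of the means. Wnt5a, the ligand best known for signalling without β-catenin, stood at 4.15, 3.43 and 3.59 FPKM in cKO and at 4.78, 4.42 and 4.704 FPKM in wild type. Here too every cKO library was lower (log2 fold change -0.26, SE 0.10, limma adjusted p = 0.3301). Wnt11, known from cell movements in the embryo, was the fourth ligand lower without overlap, with 1.798 ± 0.1003 FPKM in cKO libraries and 2.12 ± 0.222 FPKM in wild type ones (SD, n = 3 each). Its difference was small (log2 fold change -0.15, SE 0.13, limma adjusted p = 0.580). Lower without overlap were thus 4 of the 7 tested ligands, or 57.1%, against 7.03% of all tested genes, and 1 was higher, or 14.3%, against 15.5%.

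Wnt4, the ligand tied to ovarian differentiation, did not separate the groups. It had 16.9, 14.3 and 13.7 FPKM in cKO and 14.7, 12.4 and 14.4 FPKM in wild type (log2 fold change 0.11, SE 0.12, limma adjusted p = 0.686). Wnt5b overlapped as well, with 6.02 ± 1.14 FPKM in cKO libraries and 5.47 ± 0.625 FPKM in wild type ones (SD, n = 3 each). Wnt2 was near 0, at 0, 0.192 and 0.0424 FPKM in cKO and 0.324, 0.113 and 0.0467 FPKM in wild type.

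**Figure D2:**
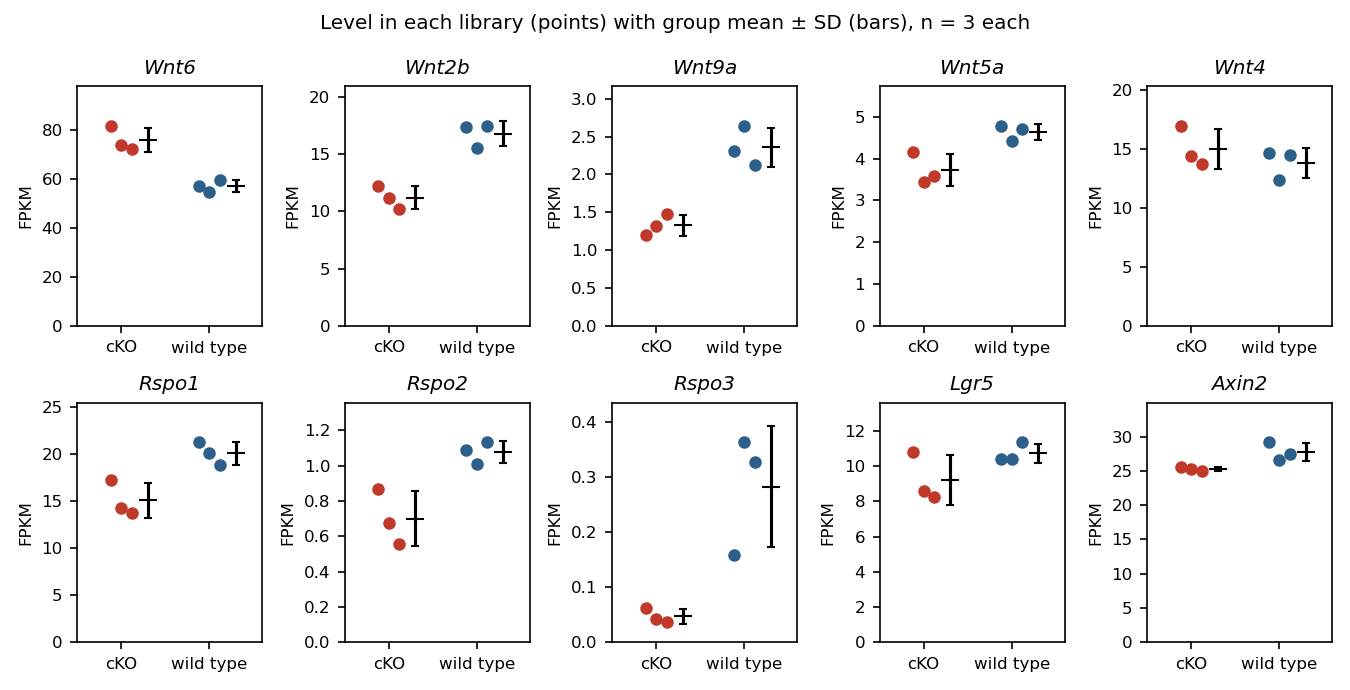
FPKM of 10 members in each library (points; cKO left, wild type right) with group means and SD (n = 3 each); each panel starts at 0 and has a scale of its own. Wnt6 lies higher in all cKO libraries, Wnt2b, Wnt9a, Wnt5a, Rspo1, Rspo2, Rspo3 and Axin2 lie lower in all of them, and Wnt4 and Lgr5 overlap. Other members whose groups were apart are not shown. Of these Tcf7, Axin1, Ctnnb1 and Fzd9 were higher in cKO, and Wnt11, Fzd7, Fzd10, Rnf43, Nkd1, Lef1 and Sfrp2 were lower.

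Shares within the ligand pool do not depend on how a library is scaled. Wnt6 held 65.6%, 65.5% and 67.03% of the summed FPKM of the 8 ligands in cKO, against 54.6%, 56.2% and 56.6% in wild type. Wnt2b held 9.78%, 9.89% and 9.48% in cKO, against 16.6%, 15.97% and 16.5% in wild type. Both shares were apart between groups, whereas Wnt4 held 12.99% ± 0.507 in cKO and 13.5% ± 0.676 in wild type (SD, n = 3 each). The ratio of Wnt6 to Wnt2b was 6.798 ± 0.237 in cKO and 3.41 ± 0.116 in wild type. Leaving out any 1 library kept the Wnt6 share between 9.65 and 10.6 percentage points higher in cKO. Ratios between genes were chosen after the values were seen and carry no test.

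**Figure D3:**
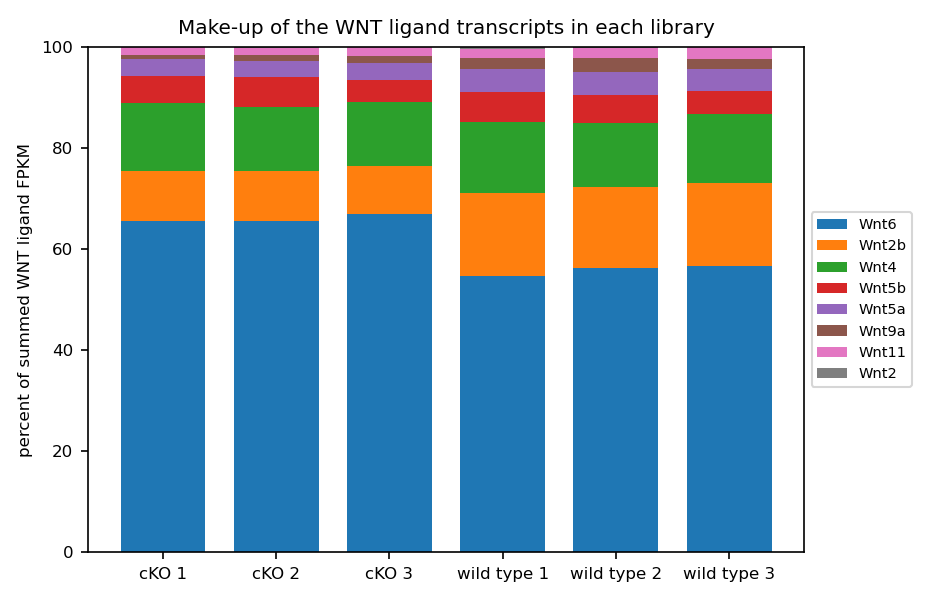
Percent of the summed WNT ligand FPKM held by each of 8 ligands in the 3 cKO libraries (left) and the 3 wild type libraries (right). The Wnt6 share is at least 65.5% in each cKO library and at most 56.6% in each wild type library, and the Wnt2b share is at most 9.89% in cKO and at least 15.97% in wild type.

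The R-spondins among the members are Rspo1, Rspo2 and Rspo3, and 1 of them could be tested. Rspo1 (chr4:124986401-125009102, plus strand), the most abundant one, stood at 17.2, 14.2 and 13.8 FPKM in cKO, against 21.2, 20.1 and 18.8 FPKM in wild type. As deposited this missed the threshold (log2 fold change -0.39, SE 0.12, limma adjusted p = 0.213), with every cKO library lower than any of wild type, and after scaling Rspo1 fell (log2 fold change -0.48, limma adjusted p = 0.0253). The ratio of Rspo1 to Wnt4 within a library was 1.02, 0.994 and 1.004 in cKO, against 1.45, 1.63 and 1.304 in wild type. Scaling cancels from this ratio, and its groups were apart.

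Rspo2 and Rspo3 encode further R-spondins and were too low to be tested. Rspo2 stood at 0.866, 0.677 and 0.558 FPKM in cKO and at 1.09, 1.01 and 1.13 FPKM in wild type. At the estimated depths that is about 19.6 to 22.97 fragments per library in cKO and 39.4 to 49.3 in wild type. Rspo3 stood at 0.0627, 0.04202 and 0.0371 FPKM in cKO, about 1.3 fragments per library, and at 0.158, 0.362 and 0.327 FPKM in wild type, about 6.55 to 14.4 fragments. Both were lower in every cKO library and rest on few fragments, at levels for which no share over all genes was computed, and with no filter their limma adjusted p were 0.366 for Rspo2 and 0.249 for Rspo3.

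Receptors of R-spondins overlapped between groups. Lgr4, the most abundant of them, stood at 42.7, 33.5 and 37.2 FPKM in cKO and at 36.6, 38.8 and 35.8 FPKM in wild type (limma adjusted p = 0.943), and the sign of its fold change turned with scaling. Lgr5, a marker of stem cells in several epithelia, had 10.8, 8.57 and 8.26 FPKM in cKO and 10.4, 10.4 and 11.3 FPKM in wild type (log2 fold change -0.21, SE 0.12, limma adjusted p = 0.457). Just 1 cKO library, replicate 1, reached the wild type range, and after scaling the groups were apart. Lgr6 was low, at 0 to 0.144 FPKM in cKO and 0.102 to 0.159 FPKM in wild type.

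Among the ligases that R-spondins act on, Rnf43 stood at 3.77, 4.39 and 4.47 FPKM in cKO and at 5.04, 4.88 and 4.89 FPKM in wild type, every cKO library being the lower (log2 fold change -0.19, SE 0.10, limma adjusted p = 0.426). Znrf3 had 6.56, 6.54 and 6.92 FPKM in cKO and 6.99, 6.62 and 6.24 FPKM in wild type. It overlapped, and its log2 fold change turned sign with scaling, from 0.01 as deposited to -0.06.

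Frizzled and LRP transcripts had small fold changes, and 0 of the 10 tested were called in either scale. Negative log2 fold changes were found in 8 of the 10 as deposited, or 80%, against 34.8% of all tested genes. The 10 fold changes ran from -0.19 to 0.09, and 9 were negative after scaling. Scaled values had an unadjusted p under 0.05 for 4 of the 10, or 40%, against 18.9% of all tested genes. Fzd7 stood at 13.3, 12.9 and 13.4 FPKM in cKO and at 15.9, 15.8 and 13.96 FPKM in wild type. As deposited it was the 1 of the 10 whose groups were apart, or 10%, against 22.6% of all tested genes (log2 fold change -0.19, SE 0.10, limma adjusted p = 0.417). After scaling 4 of the 10 were lower without overlap, or 40%, against 13% of all tested genes. Fzd3, Fzd4 and Fzd8 were the others. Lrp6, a co-receptor that carries the WNT signal with frizzled, had 17.2, 15.1 and 17.6 FPKM in cKO and 17.3, 17.9 and 17.8 FPKM in wild type (limma adjusted p = 0.722). Its relative Lrp5 had 15.1 ± 0.756 FPKM in cKO libraries and 15.7 ± 1.28 FPKM in wild type ones (SD, n = 3 each). The other tested frizzleds, Fzd1 to Fzd6 and Fzd8, had group means between 4.38 and 9.34 FPKM.

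Fzd9 and Fzd10, 2 further frizzleds, were below the filter and lay on opposite sides. Fzd9 was at 1.29, 1.06 and 1.66 FPKM in cKO and at 0.973, 0.226 and 0.468 FPKM in wild type. Fzd10 was at 0.348, 0.5997 and 0.323 FPKM in cKO and at 0.925, 0.678 and 0.779 FPKM in wild type. Neither overlapped between groups, at levels for which no share over all genes was computed. Both were added after their values were seen. They rest on about 6.54 to 42.4 fragments per library for Fzd9 and 7.64 to 40.7 for Fzd10. With no filter the limma adjusted p was 0.333 for Fzd9 and 0.323 for Fzd10.

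Ctnnb1, which encodes β-catenin, was the most abundant of the 48 members. It stood at 167, 134 and 135 FPKM in cKO and at 124, 129.7 and 123 FPKM in wild type, all cKO libraries being higher (log2 fold change 0.21, SE 0.14, limma adjusted p = 0.531). Axin1, the constitutive scaffold of the destruction complex, had 29.97, 24.3 and 25.4 FPKM in cKO and 23.7, 21.5 and 21.5 FPKM in wild type, likewise without overlap (log2 fold change 0.24, SE 0.11, limma adjusted p = 0.387). Apc, another scaffold, had 8.196, 8.03 and 9.14 FPKM in cKO and 10.1, 10.02 and 9.09 FPKM in wild type, and cKO replicate 3 just reached into the wild type range (log2 fold change -0.18, SE 0.10, limma adjusted p = 0.428). After scaling Apc was lower in every cKO library. The kinase gene Gsk3b overlapped, with 20.2 ± 1.64 FPKM in cKO libraries and 19.7 ± 0.0894 FPKM in wild type ones (SD, n = 3 each). Dishevelled genes, which relay the signal from frizzled, overlapped too, with group means of Dvl1, Dvl2 and Dvl3 between 8.13 and 13.5 FPKM.

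The feedback inhibitors Axin2 and Nkd1, known as targets of the pathway in many tissues, were both lower in all cKO libraries. Axin2 stood at 25.5, 25.3 and 25.003 FPKM in cKO and at 29.1, 26.6 and 27.5 FPKM in wild type (log2 fold change -0.13, SE 0.09, limma adjusted p = 0.539). Nkd1 had 22.2, 16.8 and 18.97 FPKM in cKO and 22.4, 23.2 and 23.3 FPKM in wild type (log2 fold change -0.25, SE 0.12, limma adjusted p = 0.391). The gap was narrow in Nkd1, where cKO replicate 1 lay just under the lowest wild type library. The ratio of Axin2 to Axin1 was 0.959 ± 0.0972 in cKO and 1.25 ± 0.02603 in wild type (SD, n = 3 each).

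Tcf7 and Lef1, which both bind β-catenin at DNA, lay on opposite sides. Tcf7 stood at 14.5, 15.6 and 12.3 FPKM in cKO and at 11.6, 10.7 and 10.95 FPKM in wild type (log2 fold change 0.32, SE 0.11, limma adjusted p = 0.2698). Lef1 stood at 3.68, 3.65 and 3.596 FPKM in cKO and at 4.105, 4.15 and 4.32 FPKM in wild type (log2 fold change -0.16, SE 0.09, limma adjusted p = 0.458). Groups overlapped in neither gene, and the ratio of Tcf7 to Lef1 was 3.88 ± 0.422 in cKO and 2.64 ± 0.156 in wild type. Tcf7l1, mainly a repressor, had 5.69 ± 1.02 FPKM in cKO libraries and 6.604 ± 0.152 FPKM in wild type ones (SD, n = 3 each). Tcf7l2, another β-catenin partner, had 7.18 ± 0.885 FPKM in cKO libraries and 7.37 ± 0.371 FPKM in wild type ones, and both genes overlapped as deposited. After scaling Tcf7l1 was lower in every cKO library, and Tcf7l2 still overlapped.

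Sfrp1, a secreted frizzled-related protein that binds WNTs, was the most abundant antagonist and overlapped between groups. It had 34.98, 29.4 and 31.1 FPKM in cKO and 30.03, 29.9 and 28.2 FPKM in wild type (log2 fold change 0.11, SE 0.11, limma adjusted p = 0.652), with the sign turned by quantile normalization. Its relative Sfrp2 stood at 2.97, 2.799 and 2.703 FPKM in cKO and at 3.36, 3.28 and 4.49 FPKM in wild type, with all cKO libraries lower (log2 fold change -0.29, SE 0.13, limma adjusted p = 0.361). Dkk3, of the Dickkopf family, had 6.95 ± 0.6796 FPKM in cKO libraries and 7.72 ± 0.357 FPKM in wild type ones (SD, n = 3 each). Its groups overlapped as deposited, and after scaling every cKO library was lower. Sfrp4 spread more, over 0.585 to 2.71 FPKM in cKO and 0.782 to 1.42 FPKM in wild type, and Frzb was listed at 0 to 0.0509 FPKM in cKO and 0.0256 to 0.0997 FPKM in wild type.

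Ligand secretion needs Wls, the carrier of WNT proteins, and Porcn, the enzyme that adds their lipid. Wls stood at 49.6, 33.98 and 41.1 FPKM in cKO and at 40.4, 44.8 and 42.3 FPKM in wild type, so that cKO held both the highest and the lowest library (log2 fold change -0.05, SE 0.15, limma adjusted p = 0.902). Porcn was below the filter, at 0.601 to 0.731 FPKM in cKO and 0.636 to 1.197 FPKM in wild type.

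Outside the 48, 67 further pathway genes were listed, of which 41 were tested. Called were 0 of the 41 as deposited and 0 after scaling. As deposited their median log2 fold change was -0.03, beside 0.08 for all tested genes. An unadjusted p under 0.05 was found as deposited in 6, or 14.6%, against 14.2% of all tested genes. As deposited 7 of the 41 were lower without overlap, or 17.1%, against 7.03% of all tested genes, and 3 were higher, or 7.32%, against 15.5%. After scaling 17 were lower without overlap, or 41.5%, against 13% of all tested genes, and 1 was higher, or 2.44%, against 12.6%. The scaled median was -0.10. The 5 with the smallest p are given next, so that groups lying apart is part of how they were picked. Apcdd1, an inhibitor at the cell surface, stood at 4.44, 4.84 and 4.903 FPKM in cKO and at 6.24, 6.55 and 6.404 FPKM in wild type (log2 fold change -0.37, SE 0.09, limma adjusted p = 0.166). Ror1, a receptor for WNT5A, stood at 2.37, 2.8001 and 2.77 FPKM in cKO and at 3.44, 4.09 and 4.45 FPKM in wild type (log2 fold change -0.45, SE 0.12, limma adjusted p = 0.193).

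Vangl1, a planar polarity gene, had 1.98 ± 0.3902 FPKM in cKO libraries and 2.804 ± 0.169 FPKM in wild type ones (SD, n = 3 each), and Nkd2, a relative of Nkd1, had 5.97 ± 0.195 FPKM in cKO libraries and 7.25 ± 0.567 FPKM in wild type ones. Tle1, a co-repressor that binds TCF factors, was the 1 of the 5 that was higher, with 22.2 ± 1.07 FPKM in cKO libraries and 18.8 ± 0.323 FPKM in wild type ones, and it overlapped after scaling. The 26 untested genes include Rspo4 and 11 WNT ligands, so that no ligand outside the 48 reached a mean of 1 FPKM.

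Genes described as targets of β-catenin in some tissue, and not among the members, numbered 25, of which 18 were tested. Members known as targets, such as Axin2 and Nkd1 above, are therefore not counted here. As deposited 0 were called, and 4 had an unadjusted p under 0.05, or 22.2%, against 14.2% of all tested genes. The median log2 fold change was 0.02, beside 0.08 for all tested genes, with 11 positive and 7 negative. The negative share was 38.9%, against 34.8% of all tested genes. After scaling the median was -0.05, beside 0.00 for all tested genes, with 8 positive and 10 negative, and 0 were called. Scaled values had an unadjusted p under 0.05 for 7, or 38.9%, against 18.9% of all tested genes. As deposited 6 of the 18 were higher without overlap, or 33.3%, against 15.5% of all tested genes. Lower without overlap were 4, or 22.2%, against 7.03%. After scaling 4 were higher, or 22.2%, against 12.6%, and 6 were lower, or 33.3%, against 13%. Named next are the 5 with the smallest p, so that groups lying apart is again part of how they were picked. Ascl2, a transcription factor of intestinal stem cells and trophoblast, stood at 2.12, 2.63 and 1.995 FPKM in cKO and at 0.913, 0.607 and 0.813 FPKM in wild type. Each cKO library was above each wild type library (log2 fold change 0.87, SE 0.16, limma adjusted p = 0.08697). Ascl2 passed after quantile normalization (limma adjusted p = 0.0383), with a range of 0.0383 to 0.347 over the alternatives in which it was tested. Its wild type values were all under 1 FPKM, so it reached the filter only through the cKO libraries, and its gap and its call add no support.

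Ccnd1, cyclin D1, had 7.76, 5.78 and 6.91 FPKM in cKO and 9.59, 8.44 and 8.34 FPKM in wild type, each cKO library being lower (log2 fold change -0.33, SE 0.12, limma adjusted p = 0.294). Sp5, a feedback repressor, had 6.76 ± 1.04 FPKM in cKO libraries and 5.03 ± 0.703 FPKM in wild type ones (SD, n = 3 each). Bmp2, a secreted growth factor, had 7.54 ± 1.06 FPKM in cKO libraries and 6.01 ± 0.521 FPKM in wild type ones. Foxl2 had 73.8 ± 11.3 FPKM in cKO libraries and 59.2 ± 1.44 FPKM in wild type ones.

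Markers of somatic cells differed between groups as well, and their part in the results above was not tested. Summed FPKM of the 12 stroma and mesenchyme markers was 884 to 986 in cKO and 1134 to 1185 in wild type, with 11 of 12 lower on the mean log scale. Most of this sum came from the collagens Col1a1, Col1a2 and Col3a1, and ratios to it below rest largely on them. Col3a1 alone had 254 to 292 FPKM in cKO and 336 to 350 in wild type, whereas Dcn and Mfap4 overlapped between groups. The surface epithelium sum over 9 markers was 172 to 263 in cKO and 272 to 294 in wild type, with 9 of 9 lower. Pericyte and smooth muscle markers, 8 in all, summed to 43.5 to 49.1 in cKO and 59.9 to 63.5 in wild type, with 7 of 7 tested lower. These 3 sums were apart between groups. The 9 endothelial markers summed to 76.4 to 100.2 in cKO and 97.8 to 123 in wild type, which overlap as deposited, with 9 of 9 lower. After median-of-ratios scaling the endothelial sums were apart, at 78.9 to 85.2 in cKO and 103 to 124 in wild type.

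Granulosa lineage markers, which include Foxl2, overlapped at 492 to 613 in cKO and 503 to 512 in wild type over 12 genes, 7 higher and 5 lower. Germ cell markers summed to 201 to 337 in cKO and 170.4 to 185 in wild type over 11 genes, 8 higher and 3 lower. No marker of these 6 lists was at 0 in any library. The 6 erythroid markers summed to 463 to 534 in cKO and 772 to 836 in wild type, with 4 of 5 tested lower. Macrophage and leukocyte markers, with Aif1 at 0, summed to 10.3 to 14.6 in cKO and 11.2 to 13.8 in wild type. Oviduct and rete markers, with Pax2 and Cdh16 at 0, summed to 14.4 to 21.7 in cKO and 14.7 to 15.5 in wild type, and steroidogenic markers to 58.97 to 76.2 in cKO and 60.6 to 72.2 in wild type. A marker given as at 0 was so in at least 1 library.

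Members were also set against those sums in the same library. Per 100 FPKM of stroma markers, Rspo1 stood at 1.75, 1.61 and 1.53 FPKM in cKO and at 1.79, 1.77 and 1.66 FPKM in wild type, which overlap. It overlapped against the surface epithelium, endothelial and pericyte sums too, and was lower in cKO without overlap against the granulosa and germ cell sums. Wnt5a overlapped and was apart against the same sums as Rspo1, and per 100 FPKM of stroma markers had 0.403 ± 0.0164 in cKO and 0.402 ± 0.0136 in wild type (SD, n = 3 each).

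Wnt2b was lower in cKO without overlap against 4 of the 6 sums. Per 100 FPKM of stroma markers it stood at 1.24, 1.26 and 1.14 FPKM in cKO and 1.46, 1.37 and 1.54 FPKM in wild type. Per 100 FPKM of granulosa markers it had 2.08 ± 0.167 in cKO and 3.31 ± 0.192 in wild type, and per 100 FPKM of pericyte markers 24.3 ± 0.683 in cKO and 27.3 ± 1.33 in wild type (SD, n = 3 each). The fourth was the germ cell sum, and against the surface epithelium and endothelial sums Wnt2b overlapped. Wnt9a was lower without overlap against the stroma, endothelial, pericyte, granulosa and germ cell sums and overlapped against the surface epithelium sum.

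Axin2 lay on different sides depending on the sum it was set against. It was higher in cKO without overlap per 100 FPKM of stroma markers, at 2.74 ± 0.1397 in cKO and 2.41 ± 0.0619 in wild type, and per 100 FPKM of pericyte markers, at 55.1 ± 2.83 in cKO and 45.2 ± 0.678 in wild type (SD, n = 3 each). Per 100 FPKM of granulosa markers it was lower without overlap, at 4.17, 5.14 and 4.82 FPKM in cKO and 5.78, 5.3002 and 5.37 FPKM in wild type, and so it was against the germ cell sum. Against the surface epithelium and endothelial sums it overlapped.

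Wnt6 was higher in cKO without overlap against the stroma, surface epithelium, endothelial, pericyte and granulosa sums, and overlapped against the germ cell sum. Per 100 FPKM of granulosa markers it stood at 13.3, 15.03 and 13.9 FPKM in cKO and at 11.3, 10.9 and 11.7 FPKM in wild type. Per 100 FPKM of germ cell markers it stood at 24.3, 28.4 and 36.04 FPKM in cKO and at 33.5, 29.6 and 35.1 FPKM in wild type.

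**Figure D4:**
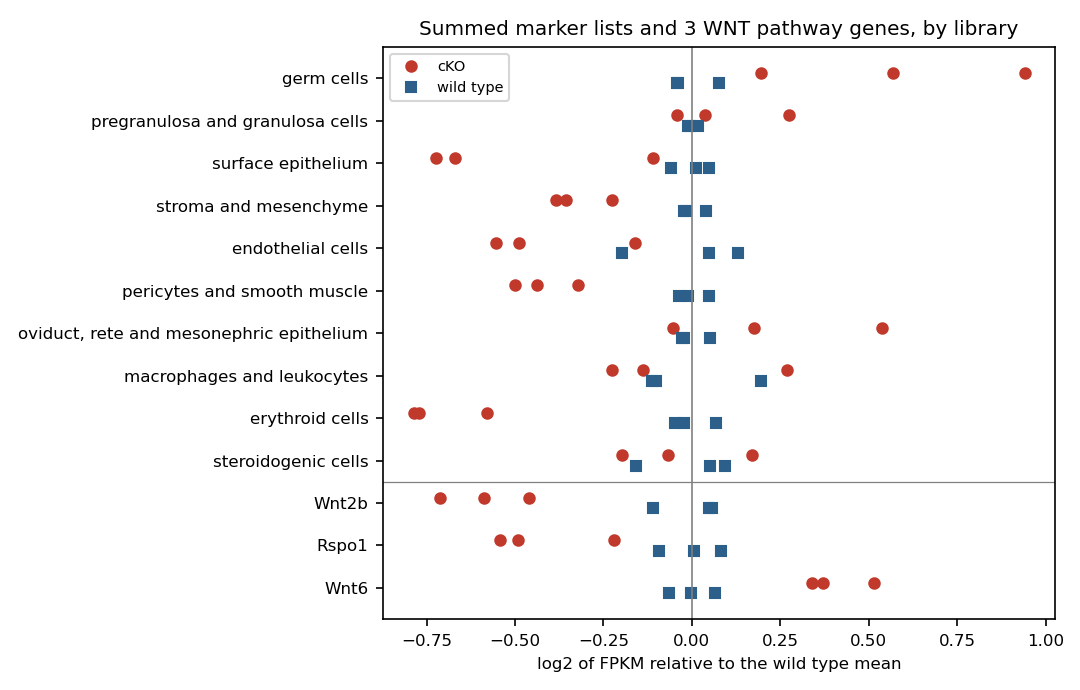
Summed FPKM of 10 cell type marker lists and FPKM of Wnt2b, Rspo1 and Wnt6 in each library, as log2 relative to the wild type mean (circles cKO, squares wild type). Sums of stroma, surface epithelium, pericyte and erythroid markers lie lower in all cKO libraries, as do Wnt2b and Rspo1, while germ cell markers and Wnt6 lie higher.

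Levels can include reads of overlapping genes, since the labels do not say whether strand was kept. In GENCODE M21 exons of Ctnnb1 overlap Ulk4, those of Dvl2 overlap Acadvl, those of Dvl1 overlap Tas1r3, those of Foxl2 overlap Foxl2os and those of Ccnd1 overlap LTO1, each on the opposite strand. Wnt5a, Wnt11, Rspo3, Fzd5, Fzd6, Axin2, Tcf7l1, Lef1, Sfrp2, Vangl1, Tle1 and Hnrnpl overlap other annotated transcripts of the opposite strand.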

How the data were processed

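RNA of whole day 1 ovaries gave 6 libraries, and the authors deposited their FPKM values for 25164 gene symbols in 1 table. Per the submitters' processing notes, build mm10 and the tools STAR 2.7.11a, HISAT2 2.2.1 and featureCounts 2.0.6 were used, with no roles stated. The FPKM program and its annotation have no name here, being not given in the sources used here. A tag in the table's title speaks of duplicates being removed. Columns were matched to samples by title.

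The test was limma 3.58.1 (R 4.3.3) on log2(FPKM + 1) for genes averaging 1 FPKM or more, with a trended prior, two-sided, and Benjamini-Hochberg adjusted over 12442 genes. Low genes have their fold changes understated on this scale. The fit was repeated with 0.1 FPKM added, without the filter, with the filter at 5 FPKM, after median-of-ratios scaling or quantile normalization, without the trend, with replicate number as a block, and without each library in turn. After the data were seen, several were repeated on scaled values. The fit was tested on simulated data. Members and lists were chosen with earlier results of these data known. Values per library were given for members called in either scale, the 12 of smallest p, the most abundant and the smallest p of each role, and Wnt4, Rspo1, Rspo2, Lgr5, Axin2, Lef1 and Ctnnb1. Rspo3, Fzd9, Fzd10 and Wnt2 were added after their values were seen. From the other lists the 5 of smallest p were named. Depth assumed 200 bp fragments, and fragments of low genes the longest GENCODE M21 transcript; these estimates concern counting only. Ratios, with the germ cell sum last, and GC boxes were added after the values were seen.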

Additional observations from a re-analysis of the deposited data

How the results depend on the processing

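Calls over all genes moved with every choice tried. Against 15 as deposited, there were 34 with a pseudocount of 0.1 FPKM, 5 with no filter, 23 when the filter was a mean of 5 FPKM, 161 after median-of-ratios scaling, 236 after quantile normalization, 5 with no trend, 2 with the replicate block, and 2 to 89 with 1 library left out. Members called lower were 0 as deposited, 2 after median-of-ratios scaling, 2 after quantile normalization and 0 to 1 with 1 library left out. The 1 was Wnt2b without cKO replicate 1. The members' median log2 fold change was -0.15 after median-of-ratios scaling and -0.18 after quantile normalization. Target genes called were 1 after quantile normalization, Ascl2, which reached the filter only through its cKO libraries. On scaled values, members called lower were 1 with no filter (Rspo1), 1 with no trend (Wnt2b), 0 with the replicate block and 0 to 2 with 1 library left out.

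Signs were followed over all alternatives for only part of the members. Of the others, Fzd5 (0.02 to -0.06) and Gsk3b (0.03 to -0.05) turned sign after median-of-ratios scaling. Among those followed, Lgr4 turned after median-of-ratios scaling (-0.0631) and quantile normalization (-0.107). It ran over -0.0665 to 0.104 with 1 library left out, negative without cKO replicate 1 and without replicate 3 of wild type. Znrf3 turned after median-of-ratios scaling (-0.0642) and quantile normalization (-0.06999), and ran over -0.0249 to 0.0461 with 1 library left out, negative without replicate 3 of either group. Sfrp1 turned after quantile normalization (-0.0129), and Wls ran over -0.179 to 0.0878, positive without cKO replicate 2. The cause was not tested. Deviations of same-numbered libraries from their group means correlated at -0.01, 0.04 and 0.07, and those of differently numbered libraries at -0.07 to 0.03. With so few libraries these small values cannot settle whether the numbers pair libraries. Members under 1 FPKM rest on few fragments.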
